A study of Mus musculus with 12 samples.

Results

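The constitutive proteasome genes are described here through lactation and the first days of mammary gland involution in mice with and without JNK in the milk-secreting epithelium. They were chosen by symbol alone, as every gene named Psma, Psmb, Psmc, Psmd, Psme, Psmf or Psmg with a number, leaving out the immunoproteasome genes Psmb8, Psmb9 and Psmb10. This gave 45 of the 37754 gene models that carry an expression value. RNA of whole mammary glands from C57BL/6 mice was sequenced in 4 groups of 3 libraries. Control mice (JNKWT, wild type in the labels) carried Wap-Cre alone, and JNK-deficient mice (JNKKO, JNK-/- in the labels) carried Wap-Cre with homozygous LoxP alleles of Mapk8 and Mapk9, the genes of JNK1 and JNK2. All were taken after a single pregnancy and had nursed litters of normalized size for 9 days before forced weaning, and glands were collected at weaning (day 0) or 3 days later (day 3). Wap-Cre is active in the lactating epithelium, so fat, immune, stromal and vascular cells of a JNKKO gland keep both genes. The 3 libraries of a group came from separate mice by the study's account.

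The proteasome is the barrel-shaped protease that degrades most proteins tagged with ubiquitin. Its 20S core holds 2 outer rings of alpha subunits, which form the gate, and 2 inner rings of beta subunits, of which PSMB5, PSMB6 and PSMB7 cut the substrate. The 19S particle caps the core: a ring of ATPases (PSMC) unfolds the substrate, and non-ATPase subunits (PSMD) bind ubiquitin chains and remove them. Other caps, made of PSME proteins, open the core without ubiquitin, and dedicated chaperones (PSMG, PSMD5, PSMD9 and PSMD10) assemble the parts and then leave. In immune cells and under interferon, PSMB8, PSMB9 and PSMB10 replace the 3 cutting subunits. During involution the milk-secreting epithelium dies and is cleared, and adipocytes and macrophages take up more of the gland.

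The 45 genes comprised 7 alpha and 7 beta subunits of the core, 6 ATPases and 11 non-ATPase subunits of the 19S particle, 5 activators or inhibitors, 7 assembly factors and 2 tissue-restricted subunits. They lie on 16 chromosomes, with 8 on chromosome 11. Psmd1 and Psmg3 are counted in gene models that also name neighboring genes, and the models of 9 members reach more than 1 kb beyond the annotated gene, among them those of Psmb7, Psma3 and Psme1. Values of these members may include reads of neighbors, and reads shared with processed copies (Psmb5-ps and Psmb6-ps are listed as models of their own) cannot be separated in FPKM. FPKM are fragments per kilobase of transcript, scaled to the mapped fragments of the library, so levels of different genes can be set side by side within a library. Of the 45 members, 43 reached 0.5 FPKM in at least 3 of the 12 libraries and were tested. Both tissue-restricted members fell under that filter, as follows. Psma8, a subunit of the testis core, was listed at 0 in all 3 JNKWT libraries of day 0 and at 0.356 FPKM at most, in a JNKWT library of day 3. Psmb11, a subunit of the thymus core, was at 0.0323 FPKM at most.

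Promoter sequences are shown for 4 members on which the results below turn: the cutting subunits Psmb5 and Psmb6, and the activators Psme3 and Psme4, whose changes were among the smallest. The windows are those of RefSeq (GRCm38.p6), from 250 bases before to 50 after the start of transcription, written 5′ to 3′ on the strand of the gene, and 37 of the 45 members matched a window. Capitals mark 2 motifs found on either strand: the antioxidant response element core TGACNNNGC and TGANTCA, a loose form of the AP1 site. Through the former the transcription factor NFE2L1 is known to act on proteasome genes. JUN and FOS proteins bind the AP1 site with C or G at N, while TGANTCA takes any base there. The Psmb5 window is chr14:54617946-54618245 (minus strand), Psmb6 is chr11:70525107-70525406 (plus strand), Psme3 is chr11:101315963-101316262 (plus strand) and Psme4 is chr11:30771525-30771824 (plus strand).
Psmb5: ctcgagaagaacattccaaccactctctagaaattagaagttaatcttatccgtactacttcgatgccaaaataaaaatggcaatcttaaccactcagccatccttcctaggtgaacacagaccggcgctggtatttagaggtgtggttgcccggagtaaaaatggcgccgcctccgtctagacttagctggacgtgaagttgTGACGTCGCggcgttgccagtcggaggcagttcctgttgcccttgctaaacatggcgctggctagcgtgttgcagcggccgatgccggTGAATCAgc
Psmb6: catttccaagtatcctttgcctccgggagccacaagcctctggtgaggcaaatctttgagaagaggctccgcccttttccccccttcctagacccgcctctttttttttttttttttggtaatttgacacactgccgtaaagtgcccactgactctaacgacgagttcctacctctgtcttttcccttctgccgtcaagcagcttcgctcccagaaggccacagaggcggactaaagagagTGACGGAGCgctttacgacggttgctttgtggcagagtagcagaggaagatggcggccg
Psme3: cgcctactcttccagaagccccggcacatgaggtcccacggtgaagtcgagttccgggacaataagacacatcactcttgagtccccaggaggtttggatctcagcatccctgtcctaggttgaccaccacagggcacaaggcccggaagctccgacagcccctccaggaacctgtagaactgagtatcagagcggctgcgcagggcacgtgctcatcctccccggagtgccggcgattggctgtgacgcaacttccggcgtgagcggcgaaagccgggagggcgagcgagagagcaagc
Psme4: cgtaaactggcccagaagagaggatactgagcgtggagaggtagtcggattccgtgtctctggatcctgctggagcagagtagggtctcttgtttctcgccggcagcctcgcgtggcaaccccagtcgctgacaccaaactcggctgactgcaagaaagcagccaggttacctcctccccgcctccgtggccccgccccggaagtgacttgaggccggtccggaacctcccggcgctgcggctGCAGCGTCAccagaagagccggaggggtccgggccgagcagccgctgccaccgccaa
The Psmb5 window holds 1 match to each of these motifs, the Psmb6 and Psme4 windows hold 1 match to the antioxidant response element core, and Psme3 holds neither. The match to TGANTCA in Psmb5 is TGAATCA, with A at N. Over the members with a window, the antioxidant response element core was found in 6 of 37 (16.2%, against 14% of all 27025 genes with a window), in Psmb5, Psmb6, Psmc6, Psmd9, Psmd12 and Psme4. The loose AP1 form TGANTCA was found in 2 members (5.41%, against 8.97% of all genes), Psmb5 and Psmd9. The letters CCAAT were found in 13 members (35.1%, against 41.1%) and the GC box GGGCGG in 22 members (59.5%, against 38.2%), both on either strand. Windows of 1 gene that overlap can count the same letters, and a match is only a match of letters.

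Facts of the whole series that touch these genes are as follows. Milk genes (14 listed) held 57.3% to 77.1% of the summed FPKM on day 0, 1.61% to 6.14% in JNKWT glands on day 3 and 8.82% to 39.1% in JNKKO glands on day 3. With antigen receptor segments left out of the sum, these shares were 79.0% to 86.8%, 6.31% to 18.3% and 30.9% to 54.7%. FPKM are scaled to the mapped fragments of a library, so a fall of the milk share moves all other genes up together. Each comparison is therefore given for FPKM as deposited and after median ratio scaling, in which the factor of a library is the median, over genes, of its FPKM relative to their geometric means across all 12. Between these scalings the median log2 change of all 14512 genes tested moved from 2.37 to 0.06 in JNKWT glands and from 1.68 to 0.04 in JNKKO glands. The targeted genes Mapk8 and Mapk9 were at 0.965 to 2.78 and 4.33 to 8.78 FPKM in JNKKO glands on day 0, against 1.95 to 2.65 and 2.48 to 10.2 in JNKWT glands. On day 3 they were at 1.25 to 3.57 and 5.26 to 10.5 FPKM in JNKKO glands, against 6.57 to 7.90 and 16.1 to 18.1 in JNKWT glands. The JNKKO libraries thus lie below the JNKWT libraries for both genes on day 3 and overlap them on day 0. The overlap for Mapk9 came from JNKWT library 1, at 2.48 FPKM, with libraries 2 and 3 at 9.04 and 10.2 FPKM. The overlap for Mapk8 came from JNKKO library 3, at 2.78 FPKM, with libraries 1 and 2 at 0.986 and 0.965 FPKM. JNKKO library 3 was also the highest JNKKO library of day 0 for Mapk9, at 8.78 FPKM against 4.86 and 4.33 FPKM. FPKM cover the whole gene model and not its deleted part alone. Library 1 of the JNKWT day 0 group stands apart from its group in the proteasome genes themselves and is described next, since many results are given with and without it.

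In JNKWT library 1 of day 0, members with long coding sequences were mostly low and members with short ones mostly high, relative to libraries 2 and 3. Psme4, with the longest coding sequence among the members (5529 bases), was at 2.34 FPKM in library 1 and at 14.2 and 13.3 FPKM in libraries 2 and 3. Psma7 (744 bases) was at 71.7 FPKM in library 1 and at 27.6 and 30.1 FPKM in the others. The log2 differences of library 1 from the mean of the other libraries ran from -2.50 for Psme4 to 1.45 for Psme2. Psme3 (762 bases) and Psmf1 (813 bases) were low as well, at -1.27 and -1.52, although their coding sequences are short. Their longest protein-coding transcripts, untranslated parts included, have 2664 and 3809 bases. Those of Psma2 and Psma3, which were high in library 1, have 2911 and 2846 bases. Transcript length was not compared with the differences. Over the 43 members the differences fell with the log2 coding length (Pearson's r = -0.66). Over 11887 genes tested with a known coding length r was -0.60. Both are given as descriptions since all points share the same libraries. In the JNKKO day 0 libraries and in all day 3 libraries the same r over the members lay between -0.49 and 0.49, and over all genes between -0.20 and 0.13. Whether RNA quality or library preparation differed in library 1 was not tested.

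**Figure D1:**
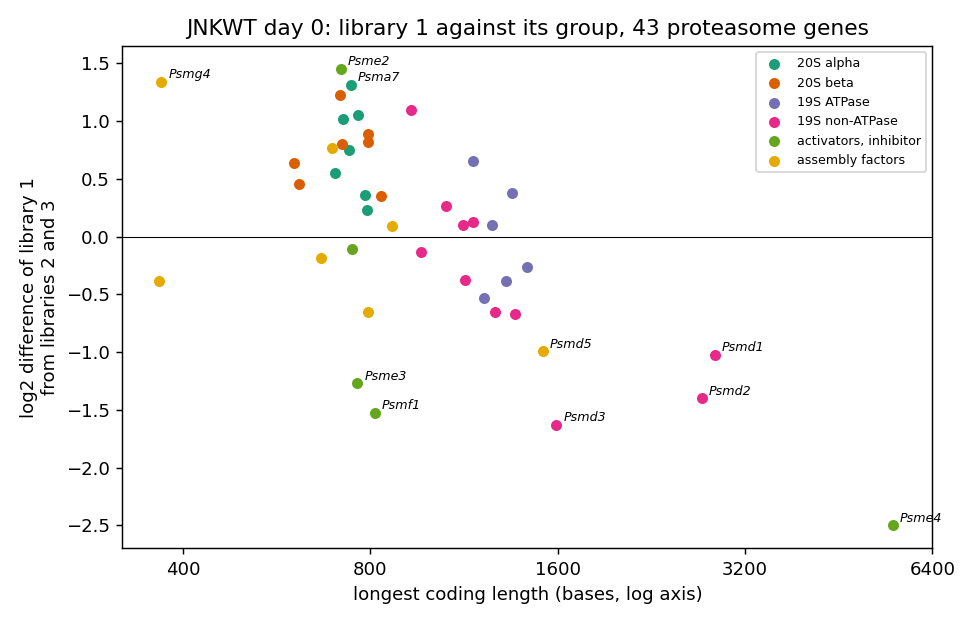
Each point is 1 of 43 proteasome genes, placed by its longest coding length in bases (log axis) and by the log2 difference of JNKWT day 0 library 1 from the mean of libraries 2 and 3, with colors for the parts of the complex. The differences run from 1.45 for Psme2 down to -2.50 for Psme4, and Psme4, the longest member, lies lowest.

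From day 0 to day 3, FPKM of the proteasome genes rose in both genotypes as deposited, as did those of most other genes. In JNKWT glands 43 of 43 members were higher on day 3 (limma, Benjamini-Hochberg adjustment over all genes tested, adjusted p under 0.05), where 91.5% of all genes tested were higher and 1.34% lower. Their median log2 change was 2.41, against 2.37 for all genes, and ran from 1.34 to 3.11. In JNKKO glands 42 of 43 members were higher, where 80.0% of all genes were higher and 1.37% lower, with a median log2 change of 2.15 against 1.68 for all genes. Without JNKWT library 1 of day 0 the medians were 2.43 against 2.16 for all genes in JNKWT and 2.15 against 1.68 in JNKKO glands. Psme4 alone did not pass in JNKKO glands, with 0.57 on the log2 scale (SE, the standard error, 0.52, adjusted p = 0.318 by limma). In each genotype all 43 members had every day 3 library above every day 0 library, as did 90.6% of all genes in JNKWT and 84.0% in JNKKO glands. In JNKWT glands shares this close to those of all genes are no result about the proteasome. In JNKKO glands the shares of the members lay further above those of all genes. There 39 of 43 members changed by more than the all-gene median, as did 23 of 43 in JNKWT glands. All members share the same libraries, and whether they differ from all genes as a set was not tested. In whole glands a gene's level also moves with the mixture of cells, and fewer cells of a type and less RNA per cell cannot be told apart.

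**Figure D2:**
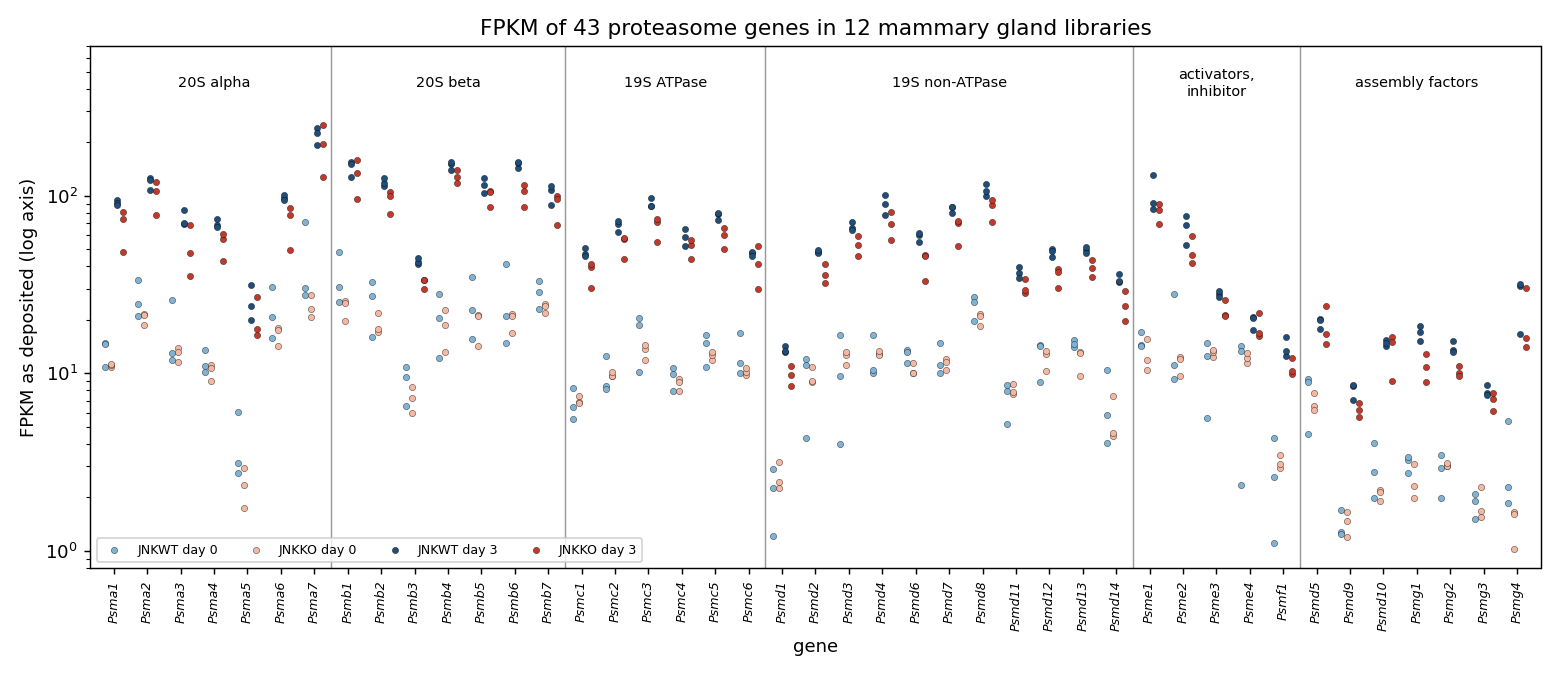
Each point is the FPKM as deposited (log axis) of 1 of 43 proteasome genes in 1 of 12 libraries, colored by genotype and day and ordered by part of the complex. The day 3 libraries lie above the day 0 libraries of the same genotype for every member shown. Psma7 is highest, at 127 to 252 FPKM on day 3.

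The cutting subunits illustrate the size of the shift. Values are given in the order of the deposited library numbers, 1, 2 and 3 on day 0, 3, 6 and 12 for JNKWT on day 3, and 3, 4 and 6 for JNKKO on day 3. Psmb5, the chymotrypsin-like subunit (chromosome 14, from 54614120 to 54617995 of GRCm38), was at 35.0, 15.6 and 22.6 FPKM in JNKWT and 21.2, 21.1 and 14.2 FPKM in JNKKO glands on day 0. On day 3 it was at 103, 115 and 126 FPKM in JNKWT and 86.3, 107 and 105 FPKM in JNKKO glands. No day 3 library overlapped a day 0 library, and the genotypes overlapped on both days. The log2 changes were 2.30 (SE 0.29) in JNKWT and 2.41 (SE 0.29) in JNKKO glands.

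Psmb6, the caspase-like subunit (chromosome 11, from 70525367 to 70527858), was at 41.4, 14.9 and 21.0 FPKM in JNKWT and 21.5, 21.0 and 16.8 FPKM in JNKKO glands on day 0, and at 144, 153 and 154 against 86.1, 116 and 107 FPKM on day 3. Psmb7, the trypsin-like subunit (chromosome 2, from 38511643 to 38644087), was at 33.0, 23.1 and 28.9 against 24.7, 22.0 and 23.9 FPKM on day 0, and at 108, 113 and 89.4 against 68.3, 100.1 and 95.6 FPKM on day 3. On day 3 every JNKKO library lay below every JNKWT library for Psmb6, and the genotypes overlapped for Psmb7. Psmb6 changed by 2.67 and 2.37 on the log2 scale in JNKWT and JNKKO glands, and Psmb7 by 1.88 in each.

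Among the alpha subunits Psma7 had the highest mean level of all members. It was at 27.6, 23.0 and 20.7 FPKM in JNKKO glands on day 0, at 194, 239.8 and 227 FPKM in JNKWT glands on day 3 and at 127, 252 and 197 FPKM in JNKKO glands on day 3. Among the beta subunits Psmb1 was highest on average, at 48.5, 25.3 and 30.7 FPKM in JNKWT glands on day 0 and 127, 156 and 150.3 FPKM on day 3. In JNKKO glands Psmb1 was at 25.6, 24.9 and 19.7 FPKM on day 0 and 96.6, 159 and 134 FPKM on day 3. Both are structural, non-cutting subunits, and neither separated the genotypes on day 3. Psmb4, another non-cutting beta subunit, had 1 of the 3 largest log2 changes in JNKWT glands (2.95, SE 0.30), from 28.1, 12.2 and 20.6 FPKM to 140.1, 150.5 and 156 FPKM. In JNKKO glands it went from 22.7, 18.7 and 13.2 FPKM to 118, 139 and 127 FPKM.

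In the 19S particle, Psmc3 was the ATPase with the highest mean level, at 18.8, 10.2 and 20.4 FPKM in JNKWT and 13.7, 11.9 and 14.4 FPKM in JNKKO glands on day 0. On day 3 it was at 87.3, 87.2 and 97.7 against 54.9, 71.2 and 73.9 FPKM, with every JNKKO library below every JNKWT library. Psmd8, the highest non-ATPase subunit, was at 26.9, 19.7 and 25.4 against 21.6, 20.9 and 18.4 FPKM on day 0, and at 100.4, 117 and 106 against 70.9, 88.8 and 95.1 FPKM on day 3. It showed the same order of the genotypes on day 3. Psmd3, a lid subunit, had a log2 change of 2.94 (SE 0.39) in JNKWT glands, from 3.99, 9.60 and 16.5 FPKM to 65.7, 64.0 and 71.0 FPKM. Its day 0 value in library 1 was the lowest of the group, and without that library the log2 change was 2.40. In JNKKO glands Psmd3 went from 12.7, 13.3 and 11.1 FPKM to 46.1, 52.7 and 59.7 FPKM.

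Among the activators Psme1, part of the interferon-inducible cap, was highest, at 14.5, 17.0 and 14.3 FPKM in JNKWT glands on day 0 and 84.4, 91.7 and 132 FPKM on day 3. In JNKKO glands it was at 11.9, 10.5 and 15.6 FPKM on day 0 and 69.0, 89.5 and 83.3 FPKM on day 3, and the genotypes overlapped on day 3. Among the assembly factors Psmd5, a chaperone of the ATPase ring, was highest on average, and Psmg4, a chaperone of the alpha ring, had the largest log2 change of all members, 3.11 (SE 0.44) in JNKWT and 3.66 (SE 0.44) in JNKKO glands. Psmg4 went from 5.38, 1.87 and 2.28 FPKM to 16.7, 30.9 and 32.1 FPKM in JNKWT and from 1.66, 1.62 and 1.03 FPKM to 14, 30.2 and 15.8 FPKM in JNKKO glands. On the log2 scale it also had the widest scatter within both day 3 groups, which overlapped.

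Psme4, Psmd5 and Psme3 had the smallest changes among the members. Psme3, the nuclear activator, was at 5.59, 12.5 and 14.9 FPKM in JNKWT and 12.3, 13.3 and 13.5 FPKM in JNKKO glands on day 0, and at 27.9, 27.0 and 29.2 against 21.3, 21.0 and 25.9 FPKM on day 3. Psme4, a large single-chain activator, was at 2.34, 14.2 and 13.3 against 11.4, 12.2 and 13 FPKM on day 0, and at 20.8, 20.5 and 17.5 against 16.2, 16.9 and 21.7 FPKM on day 3. Psmd5 was at 4.52, 9.27 and 8.93 against 7.78, 6.54 and 6.19 FPKM on day 0, and at 17.7, 20.2 and 19.8 against 14.6, 16.6 and 24.0 FPKM on day 3. Their log2 changes lay below the median of all genes in both genotypes, with values of 1.46, 1.34 and 1.40 in JNKWT and 0.79, 0.57 and 1.39 in JNKKO glands in the order Psme3, Psme4, Psmd5. The 3 genes were low in JNKWT library 1 of day 0, and without it the changes in JNKWT glands were 1.03, 0.51 and 1.07. In that fit Psme4 also passed in JNKKO glands (0.57, adjusted p = 0.00564 by limma).

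With median ratio scaling most proteasome genes did not pass the test from day 0 to day 3. In JNKWT glands 0 members passed as higher, with 1 more at an unadjusted p under 0.05 in either direction, and 4 were lower (Psme4, Psmd5, Psme3 and Psmd13), where 19.1% of all genes were higher and 16.4% lower. The median log2 difference of the 43 members was -0.07, against 0.06 for all genes. In JNKKO glands 7 were higher (Psmc1, Psmc2, Psmc4, Psmd4, Psmd7, Psme1 and Psmg4) and 1 was lower (Psme3), where 11.3% of all genes were higher and 9.87% lower, and the median was 0.38 against 0.04. By part, the median log2 differences in JNKKO glands were 0.59 for the alpha and 0.59 for the beta subunits, 0.56 for the ATPases, 0.20 for the other 19S subunits, 0.00 for the activators and the inhibitor and 0.32 for the assembly factors. In JNKWT glands the same medians were -0.02, -0.21, 0.06, -0.07, -0.31 and -0.12. They moved with library 1 of day 0: without it they were 0.48, 0.27, 0.41, 0.02, -0.19 and 0.22 in JNKWT glands, while those of the core and the ATPases in JNKKO glands remained at 0.59, 0.59 and 0.56.

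The scaled counts also moved with the scaling and with single libraries. Scaled to the 75th percentile, 4 members were higher and 2 lower in JNKWT glands, where 22.9% of all genes were higher and 12.6% lower, and 11 were higher and 1 lower in JNKKO glands, where 12.5% were higher and 8.59% lower. Scaled to the summed FPKM outside milk genes and antigen receptor segments, 8 were higher and 0 lower in JNKWT glands, where 29.6% of all genes were called in either direction, and 20 were higher and 0 lower in JNKKO glands, where 15.4% were. By direction these shares were 24.1% higher and 5.49% lower in JNKWT glands and 12.5% higher and 2.91% lower in JNKKO glands. The medians were then 0.50 in JNKWT glands, against 0.59 for all genes, and 0.74 in JNKKO glands, against 0.37. Without JNKWT library 1 of day 0, 13 members were higher and 3 lower in JNKWT glands, where 46.4% of all genes were called in either direction, and 20 were higher and 2 lower in JNKKO glands, where 39.9% were. The median log2 differences were then 0.22 and 0.38. The 13 higher members in JNKWT glands were Psma1, Psma4, Psma5, Psma7, Psmb4, Psmb6, Psmc1, Psmc2, Psmc4, Psmd4, Psmd7, Psmd10 and Psmg4. Leaving out 1 of the other libraries gave from 2 to 5 called members in JNKWT and from 1 to 11 in JNKKO glands. The shares of all genes called in these other fits were not computed, so these counts are no result about the members. Among the 7 members called higher in JNKKO glands, Psmg4 and Psme1 were called in 7 of the 12 fits that left out 1 library and each of the others in at most 4.

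The lower call of Psme3 was the steadiest of these. Scaled FPKM of Psme3 were 18.4, 25.7 and 25.7 in JNKWT and 22.9, 27.2 and 26.2 in JNKKO glands on day 0, and 11.6, 11.5 and 10.5 against 15.3, 11 and 12.6 on day 3, with no overlap between the days in either genotype. Its scaled log2 differences were -1.04 (SE 0.20, adjusted p = 0.00252 by limma) in JNKWT and -0.98 (SE 0.20, adjusted p = 0.00555 by limma) in JNKKO glands. It was called lower in 12 of 12 fits that left out 1 library, in each genotype, and when scaled to the 75th percentile (-0.85 and -0.91), but not when scaled to the sum, where it stood at -0.47 and -0.62 (adjusted p = 0.410 and 0.345 by limma). Psmd5 was called lower in JNKWT glands in 12 of 12 such fits, at -1.08 (SE 0.19, adjusted p = 0.00139 by limma), and at the 75th percentile scaling, but not with the scaling to the sum (-0.52, adjusted p = 0.319 by limma). It stood at -0.38 (SE 0.19, adjusted p = 0.178 by limma) in JNKKO glands. The difference between these changes of Psmd5 did not pass the test (0.71, SE 0.26, adjusted p = 0.306 by limma).

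Scaled FPKM of Psme4 were 7.70, 29.1 and 23.0 in JNKWT glands on day 0 and 8.63, 8.76 and 6.25 on day 3, so only library 1 of day 0 lay in the day 3 range. In JNKKO glands they were 21.2, 25.1 and 25.1 on day 0 and 11.6, 8.82 and 10.6 on day 3. The scaled log2 differences were -1.14 (SE 0.40, adjusted p = 0.0460 by limma) and -1.20 (SE 0.40, adjusted p = 0.0550 by limma). Without library 1 they were -1.72 (adjusted p = 0.000124 by limma) and -1.21 (adjusted p = 0.000548 by limma). The call in JNKWT glands was made in only 1 of 12 fits that left out a library, the one without library 1.

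**Figure D3:**
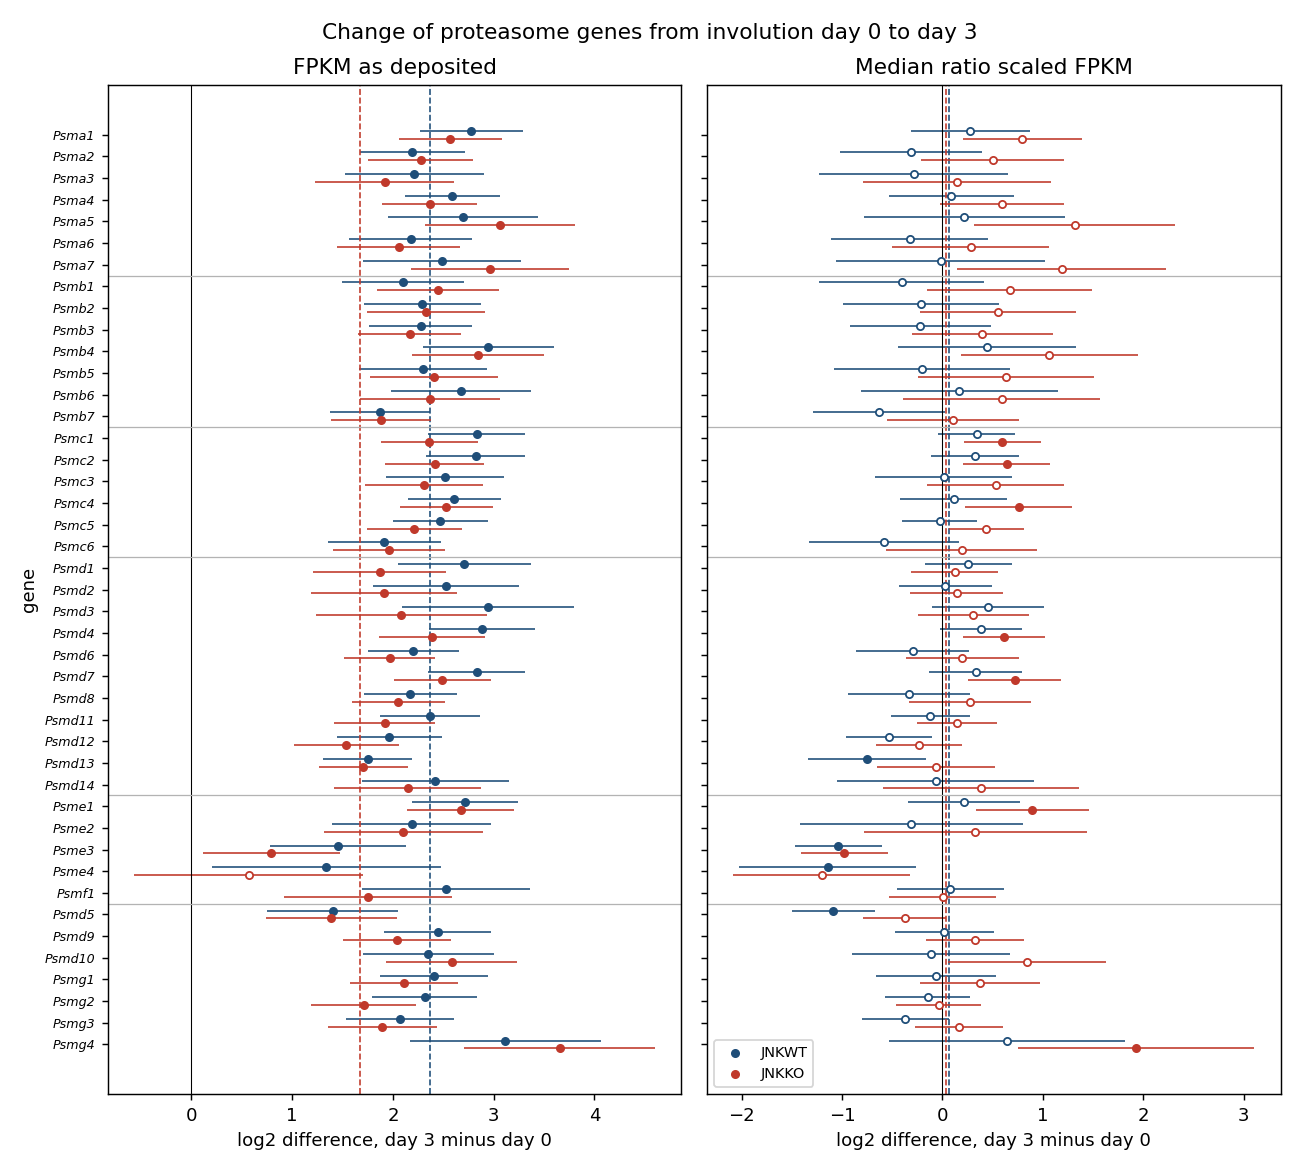
Points are the log2 difference of each of 43 proteasome genes from day 0 to day 3 in JNKWT (blue) and JNKKO (red) glands, bars are 95% intervals of the limma fit, filled points passed an adjusted p of 0.05, and dashed lines are the medians of all genes tested. As deposited (left) the members lie around the all-gene median of JNKWT glands, 2.37, and mostly above that of JNKKO glands, 1.68. After median ratio scaling (right) Psme3, Psme4 and Psmd5 lie lowest.

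Ratios of genes within a library do not depend on its scaling, and they are given as a description. The median FPKM of the 14 core subunits was 1.96 to 2.13 times that of the 17 subunits of the 19S particle in the 6 libraries of day 3, and 1.45 to 3.13 times in those of day 0, where the highest was JNKWT library 1. Psme3 stood at 0.204 to 0.291 times the core median on day 3 and at 0.630 to 0.871 times in 5 of 6 libraries on day 0, with JNKWT library 1 at 0.177. Psme4 stood at 0.160 to 0.222 times the core median on day 3 and at 0.582 to 0.929 times on day 0, with JNKWT library 1 at 0.0741. Psmd5 stood at 0.289 to 0.418 times the ATPase median on day 3 and at 0.437 to 1.01 times in all 6 libraries of day 0. Levels within the core spread widely in every library: the highest subunit, Psma7 in 9 of 12, stood 7.62 to 13.7 times above the lowest, which was Psma5 in all 12. The gene model of Psma5 is among those that reach beyond the annotated gene.

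**Figure D4:**
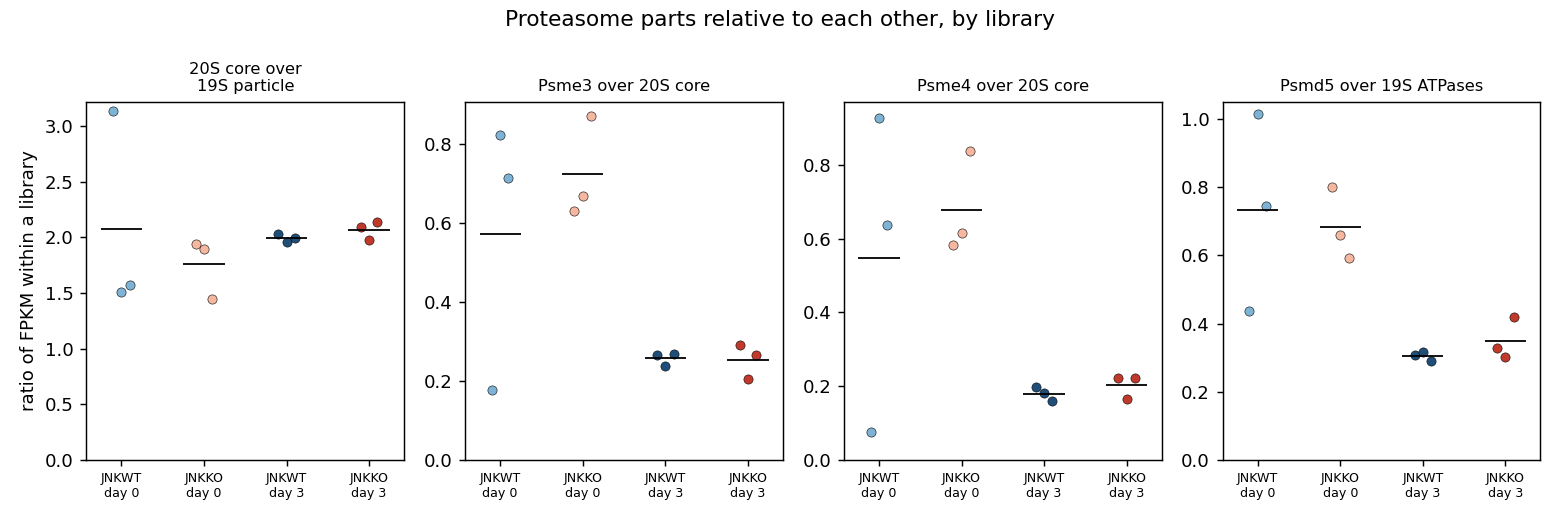
Points are libraries by genotype and day, and lines are group means, for 4 ratios of FPKM within a library: the median of 14 core subunits over the median of 17 subunits of the 19S particle, Psme3 and Psme4 over the core median, and Psmd5 over the median of 6 ATPases. Psme3 and Psme4 fall to 0.160 to 0.291 of the core on day 3, and JNKWT library 1 of day 0 is the high point of the first ratio and the lowest day 0 library in the others.

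As a share of the summed FPKM of the genes tested, without milk genes and antigen receptor segments, the 43 genes held 0.393% ± 0.0391 (SD, n = 3) in JNKWT and 0.273% ± 0.0598 in JNKKO glands on day 0, and 0.520% ± 0.0362 and 0.480% ± 0.0312 on day 3. No day 3 library overlapped a day 0 library (0.450% to 0.562% against 0.237% to 0.422%). Scaled to this same sum, the median log2 change of all genes was 0.59 in JNKWT glands, against 0.50 for the members. In JNKKO glands it was 0.37, against 0.74 for the members. In JNKWT glands the rise of the median member was thus not above that of the median gene. Over the 12 libraries, median ratio scaled levels of 2 members correlated with a median Pearson's r of 0.54 over 903 pairs, from -0.90 to 0.996. Psma2 followed the mean of the other members most closely (r = 0.97) and Psme4 least (r = -0.69). All members share the same 12 libraries, among them the outlying library 1.

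Cell type markers differed between the groups. Scaled to median ratios, the summed FPKM of the luminal epithelial list (10 of 10 tested) was 641 to 847 on day 0, 486 to 586 in JNKWT glands on day 3 and 635 to 1067 in JNKKO glands on day 3. The macrophage list (12 of 13 tested) went from 78.2 to 214 on day 0 to 857 to 1232 in JNKWT and 529 to 666 in JNKKO glands on day 3. The adipocyte list (10 of 10 tested) was at 476 to 2273 on day 0, at 2022 to 4008 in JNKWT and at 1044 to 2229.9 in JNKKO glands on day 3. JNKWT library 1 held the highest day 0 values of the macrophage and adipocyte lists. Its scaling factor was 0.304, against 0.487 and 0.577 for JNKWT libraries 2 and 3. JNKKO libraries of day 0 reached at most 126 for macrophages and 811 for adipocytes. The neutrophil list (3 of 10 tested) reached 84.6 to 197 in JNKKO glands on day 3 and at most 11.3 elsewhere, with Elane, Mpo, Ly6g, Retnlg, S100a9, Csf3r, Ngp and Camp at 0 in some library. Skeletal muscle markers (9 of 10 tested) ran from 8.69 to 3824 over libraries. Their part in the proteasome results was not tested.

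The constitutive cutting subunits fell relative to their immunoproteasome counterparts from day 0 to day 3. The ratio of Psmb5 to its immunoproteasome counterpart Psmb8 was 15.4, 14.4 and 11 in JNKWT and 13.3, 21.7 and 12.6 in JNKKO glands on day 0, and 4.20, 4.15 and 3.14 against 5.41, 3.95 and 5.81 on day 3. The ratio of Psmb7 to Psmb10 was 14.8, 18.7 and 15.4 against 18.0, 16.1 and 12.6 on day 0, and 4.81, 6.46 and 2.52 against 5.57, 6.14 and 5.22 on day 3. The ratio of Psmb6 to Psmb9 was 21.4, 11.1 and 16.7 against 10.2, 39.5 and 14.4 on day 0, and 8.34, 9.78 and 6.36 against 8.68, 7.54 and 7.90 on day 3. All 6 day 3 libraries lay below all 6 day 0 libraries for each ratio. On chromosome 17 the gene model of Psmb8 runs from 34197721 to 34216321 and that of Psmb9 from 34181988 to 34197225. The model of Psmb10 runs from 105934333 to 105966115 on chromosome 8. These 3 models were not compared with the annotated genes, and their values may include reads of neighbors.

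The tests were made on log2 ratios with 0.1 FPKM added to each gene. The differences of the mean log2 ratios between the days were -1.64 for Psmb5 over Psmb8, -0.97 for Psmb6 over Psmb9 and -1.61 for Psmb7 over Psmb10. Each had an exact two-sided permutation p of 0.005 (adjusted p = 0.01 over 6 tests), which is the smallest that 400 arrangements can give. Between the genotypes the differences were 0.28 (exact permutation p = 0.15, adjusted p = 0.225), 0.07 (exact permutation p = 0.84, adjusted p = 0.84) and 0.16 (exact permutation p = 0.64, adjusted p = 0.768). With a pseudocount of 1 the day difference of Psmb6 over Psmb9 was -0.35 and did not pass the exact permutation test (adjusted p = 0.32). Psmb9 was at 0.533 to 2.10 FPKM on day 0. Psmb8 rose from 0.976 to 2.27 FPKM on day 0 to 15.9 to 40.3 FPKM on day 3, and Psmb10 from 1.23 to 2.22 to 12.3 to 35.5 FPKM. Macrophages are known to express immunoproteasome genes. Their markers were higher on day 3, as given above, and their part in these ratios was not tested.

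**Figure D5:**
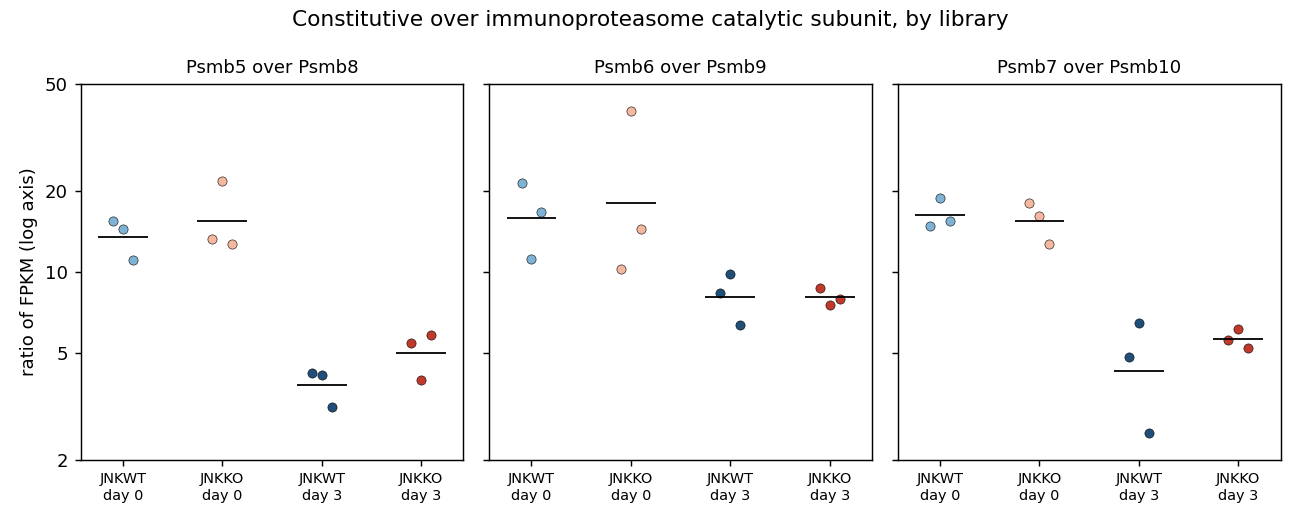
Points are libraries by genotype and day and lines are geometric means of the ratio of FPKM (log axis) of each constitutive cutting subunit to its immunoproteasome counterpart. The 6 day 3 libraries lie below the 6 day 0 libraries in each panel, at 3.14 to 5.81, 6.36 to 9.78 and 2.52 to 6.46.

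The loss of JNK in the epithelium was compared within each day. On day 0, 0 of 43 members passed the test as deposited (0.00689% of all genes higher and 0.00689% lower), and 1 of 43 had an unadjusted p under 0.05. The median log2 difference, JNKKO minus JNKWT, was -0.23, against 0.18 for all genes, and without JNKWT library 1 it was -0.13, against -0.06 for all genes. Under median ratio scaling 0 members passed (0.00689% of all genes higher and 0.00689% lower), with 1 at an unadjusted p under 0.05, and the median was -0.45. Without JNKWT library 1 the scaled median was -0.08 and 0 members passed (0.0207% of all genes in either direction). Psmg4 had the lowest difference under both scalings, and library 1 held its highest day 0 value.

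On day 3, 0 of 43 members passed as deposited, where 0.544% of all genes were higher and 5.62% lower in JNKKO glands, and 2 of 43 had an unadjusted p under 0.05. Without JNKWT library 1 of day 0, which shares the estimate of the spread, 0 members passed, where 1.29% of all genes were higher and 17.8% lower. All 43 log2 differences were below 0, from -0.64 to -0.09, with a median of -0.37, against -0.48 for all genes. Psmg1, a chaperone of the alpha ring, was lowest: it was at 18.5, 15.3 and 17.0 FPKM in JNKWT and 8.95, 10.9 and 12.9 FPKM in JNKKO glands (-0.64 on the log2 scale, SE 0.25, adjusted p = 0.139 by limma). Psma3 was at 69.5, 83.4 and 70.4 against 35.4, 68.2 and 47.4 FPKM (log2 difference -0.61, SE 0.32, adjusted p = 0.249 by limma). Psmb6 followed with a log2 difference of -0.56 (SE 0.32, adjusted p = 0.292 by limma). On day 0 Psmg1 had been at 3.23, 2.73 and 3.37 against 2.31, 3.08 and 1.98 FPKM, and Psma3 at 25.9, 11.9 and 13.1 against 13.8, 13.1 and 11.6 FPKM, with the genotypes overlapping for both. On day 3 they did not overlap. The smallest differences were those of Psmd5 (-0.09), Psme4 (-0.11) and Psmb1 (-0.18).

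As deposited, every JNKKO library of day 3 lay below every JNKWT library in 27 of 43 members. This is a larger share than the 43.9% of all genes tested, and the difference of these shares was not tested. JNKKO library 3, in which milk genes held 39.1% of the FPKM, was below the mean of JNKKO libraries 4 and 6 in all 43 members. Median ratio scaled, 0 members passed on day 3 (0.338% of all genes higher and 0.117% lower), with 0 at an unadjusted p under 0.05. The median was then 0.14, against 0.01 for all genes, and the differences ran from -0.14 for Psmg1 to 0.41 for Psmd5 (SE 0.19, adjusted p = 0.361 by limma). The direction of the median thus turns with the scaling, and without JNKWT library 1 of day 0 it was 0.14 with 0 passing (5.27% of all genes in either direction). For Psmb5 the scaled difference was 0.29, with a 95% interval from -0.58 to 1.17, which leaves room for changes of either sign. That interval rests on a spread shared by all groups. Scaled FPKM of Psmb5 were 115 in JNKWT library 1 of day 0 and 32.1 and 39.2 in libraries 2 and 3. On day 3 every JNKKO library lay above every JNKWT library for scaled Psmb5. The same held for 9 of 43 members, Psmb5 included, and the reverse for 0, against 17.3% and 15.6% of all genes.

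The change from day 0 to day 3 did not pass a test of a difference between the genotypes in any of 43 members, as deposited or scaled (0.00689% of all genes higher and 0.00689% lower under each). As deposited the median difference, JNKKO change minus JNKWT change, was -0.21, against -0.67 for all genes, and 0 members had an unadjusted p under 0.05. Scaled it was 0.52, against -0.000885 for all genes, and 1 member (Psmd5) had one. Without JNKWT library 1 the scaled median was 0.21 and 0 members passed (0.0207% of all genes in either direction). Largest among the scaled differences was Psmg4, at 1.29 (SE 0.76, adjusted p = 0.490 by limma), whose day 0 values in JNKWT glands ran from 3.83 and 3.95 to 17.7 scaled FPKM in library 1.

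Partners of the proteasome were read from a list of regulators, assembly factors and ubiquitin genes, of which 25 were tested. As deposited, 25 rose in JNKWT and 23 in JNKKO glands from day 0 to day 3, with medians of 2.2 and 1.75 on the log2 scale, where 91.5% and 80.0% of all genes were higher and the medians of all genes were 2.37 and 1.68. On the scaled values 3 rose and 5 fell in JNKWT glands (19.1% and 16.4% of all genes) and 2 rose and 2 fell in JNKKO glands (11.3% and 9.87% of all genes), with medians of -0.28 and -0.03. These counts were 5 and 12 in JNKWT glands without library 1 of day 0, where 46.4% of all genes were called in either direction, and 5 and 6 in JNKKO glands, where 39.9% were. Nfe2l1, the factor that raises proteasome genes when the protease is short, was at 2.93, 8.00 and 9.27 against 9.66, 8.93 and 11.2 FPKM on day 0, and at 85.1, 85.5 and 90.7 against 52.6, 50.3 and 73.0 FPKM on day 3. Its scaled log2 differences were 1.34 (SE 0.24, adjusted p = 0.00159 by limma) in JNKWT, called in 12 of 12 fits that left out a library, and 0.76 (SE 0.24, adjusted p = 0.0409 by limma) in JNKKO glands, called in 4 of 12.

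Akirin2, which carries proteasomes into the nucleus, was higher by scaled log2 differences of 0.96 and 0.64, and Zfand5, which stimulates the 26S proteasome, by 0.96 in JNKWT glands (adjusted p = 0.0107 by limma), with 0.74 in JNKKO glands (adjusted p = 0.0522 by limma). Ngly1, the enzyme that deglycosylates NFE2L1, was lower, at -1.18 and -1.04, and Uchl5, a deubiquitinase of the 19S particle, at -1.34 and -0.98, and both calls were made in 12 of 12 fits that left out a library in each genotype. Neither passed when scaled to the sum (-0.61 and -0.68 for Ngly1, -0.78 and -0.62 for Uchl5), where Nfe2l1 passed in JNKWT glands only (1.91, and 1.13 in JNKKO glands). Txnl1 and Rad23b were lower in JNKWT glands (-0.84 and -0.73) and at -0.09 and -0.54 in JNKKO glands, where they did not pass. Pomp, which matures the core, was at -0.51 in JNKWT and 0.60 in JNKKO glands and did not pass (adjusted p = 0.237 and 0.207 by limma). No partner passed a test of the genotypes or of their changes under median ratio scaling.

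Set beside other gene lists, the scaled medians of the proteasome genes, -0.07 in JNKWT and 0.38 in JNKKO glands, lay between those of ribosomal and lysosomal genes. In JNKKO glands the proteasome median was close to the lysosomal one, 0.40. Without JNKWT library 1 of day 0 the proteasome medians were 0.22 and 0.38. The shares of all genes called were 19.1% higher and 16.4% lower in JNKWT glands and 11.3% higher and 9.87% lower in JNKKO glands. The 85 tested genes of the cytosolic ribosome had scaled medians of -1.10 in JNKWT and 0.24 in JNKKO glands from day 0 to day 3, with 1 higher and 28 lower in JNKWT and 1 higher and 0 lower in JNKKO glands. Their medians were -0.45 and 0.23 without JNKWT library 1 of day 0, with 2 higher and 25 lower in JNKWT and 12 higher and 2 lower in JNKKO glands. The 23 lysosomal genes had medians of 0.63 and 0.40, with 11 higher and 3 lower in JNKWT and 8 higher and 0 lower in JNKKO glands. Without library 1 their medians were 0.62 and 0.40, with 13 higher and 5 lower in JNKWT and 12 higher and 2 lower in JNKKO glands. The 3 immunoproteasome genes had medians of 1.27 and 1.70, with 2 and 3 called higher, and of 1.71 and 1.70 without library 1, with 3 called in each. In the fits without library 1, 46.4% and 39.9% of all genes were called in either direction. These are descriptions, and no difference between lists was tested.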

How the data were processed

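Members were chosen by symbol, and the members, gene lists, marker lists and tests were chosen with earlier results of these data known. RNA came from mammary glands of 12 mice, in 4 groups of 3 libraries (JNKWT and JNKKO, day 0 and day 3). The authors made the deposited FPKM values: paired reads were trimmed, aligned to mouse GRCm38 with Bowtie2 and TopHat2 (version 2.0.14), and quantified per library with Cufflinks (version 2.2.1), as given in the study's methods and the submitters' processing notes. Counts and depth per library are not given, so no counting error can be attached. FPKM count whole genes and were not normalized further between libraries. The table also holds columns of the authors' own Cuffdiff test of JNKWT day 0 against day 3, which were not used.

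Genes at 0.5 FPKM or more in at least 3 of 12 libraries (14512) were tested on log2(FPKM + 0.1), which understates changes of low genes, with limma (version 3.58.1, R 4.3.3). The fit had 4 group means, 8 residual degrees of freedom and a mean-variance trend. P-values were two-sided and adjusted by Benjamini-Hochberg over all genes tested, and called below 0.05. Differences are day 3 minus day 0 and JNKKO minus JNKWT. The 3 ratios of constitutive to immunoproteasome subunits were tested by exact permutation of libraries, within genotype for the day and within day for the genotype, which allows no p below 0.005. The fit was tested on simulated data. Alternatives covered the pseudocount, filter, trend, scaling, samples in the fit, each library left out and a block on the column numbers. All 45 members were accounted for, and those named in full were the highest of each role, the cutting subunits, and the 3 largest and 3 smallest changes of a main comparison. The within-library ratios of Psme3, Psme4 and Psmd5 were chosen after their values were seen. One gene of the list of partners is counted in it and not reported by name here.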

Additional observations from a re-analysis of the deposited data

How the results depend on the processing

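Of 6369 alternative values for 33 named genes, 6130 stayed on their side of the threshold and were not counted as reversed. Of the others, 158 lost the call, 57 gained one and 24 reversed. A change of sign was counted as reversed only where the main or the alternative fit made a call. Uncalled values that changed sign are therefore among the 6130, such as the genotype difference of Psmb5 on day 3 between the scalings. Under median ratio scaling, the counts of called members went from 43 to 4 in JNKWT and from 42 to 8 in JNKKO glands. The log2 change in JNKWT glands then reversed to -0.20 for Psmb5, -0.63 for Psmb7, -0.33 for Psmd8, -0.019 for Psma7, -0.41 for Psmb1, -1.08 for Psmd5, -1.14 for Psme4, -1.04 for Psme3, -0.064 for Psmg1, -0.29 for Psma3, -0.75 for Psmd13, -0.068 for Psmd14, -0.12 for Psmd10, -0.31 for Psme2, -0.51 for Pomp, -1.34 for Uchl5 and -1.18 for Ngly1. In JNKKO glands it reversed to -0.38 for Psmd5, -0.98 for Psme3, -0.065 for Psmd13, -0.98 for Uchl5 and -1.04 for Ngly1. The scaling itself, which moves all genes together, accounts for these reversals.

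Median ratio scaled, the count of 4 in JNKWT glands (35.5% of all genes called in either direction) became 2 with a filter on a mean of 1 FPKM (35.8% of all genes), 2 without the trend (35.2%), 2 with only the groups compared (22.1%) and 8 when scaled to the sum (29.6%). The count of 8 in JNKKO glands (21.1%) became 5 without the trend (20.9%), 22 with only the groups compared (38.0%) and 20 when scaled to the sum (15.4%). With 1 library left out these counts ran from 2 to 16 in JNKWT and from 1 to 22 in JNKKO glands. Both were highest without JNKWT library 1 of day 0, where 46.4% and 39.9% of all genes were called in either direction. For the fits without another library the share of all genes was not computed. Over the fits that left out 1 library, Psma7 ran from -0.41 to 0.69 and Psmd10 from -0.43 to 0.41 in JNKWT glands. As deposited the counts ran from 42 to 43 and from 41 to 43 in these fits. With all libraries 91.5% and 80.0% of all genes were higher as deposited. No genotype or difference of changes gained a call. The day difference of Psmb6 over Psmb9 was -0.35 with a pseudocount of 1, and ran from -1.15 to -0.71 with 1 library left out. Beyond the scaling itself, the cause of these shifts was not tested. The numbers in the column names are not tied to a title, but the genotypes share 3 of them on day 0 and 2 on day 3. With these numbers as a replicate block within a day, a fit added after the data were seen, 0 members passed on either day under either scaling, and the genes called on day 3 went from 894 to 243 as deposited and from 66 to 6 scaled. Deviations from the group means correlated between libraries of the same number at -0.17 to -0.066 on day 0 and 0.045 to 0.069 on day 3, as deposited. Between libraries of unlike number these correlations ran from -0.18 to 0.16. With 3 libraries a group they cannot decide whether a number marks a shared batch, and this was not tested. For the change between the days no paired analysis was possible because the days of a genotype share only 1 number. FPKM without counts give no depth, so a gene near 0 cannot be told from one not sampled, and 3 libraries a group limit each comparison.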
